A study of Mus musculus with 11 samples.

Results

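CC chemokines are small secreted proteins that draw leukocytes along a gradient, and the results below follow 10 of their genes, Ccl2, Ccl7, Ccl8, Ccl11, Ccl3, Ccl4, Ccl5, Ccl6, Ccl9 and Ccl19, in fibroblasts sorted from normal mouse mammary glands and from mammary lesions. A gene was taken where a probe set had its symbol as the only symbol in the annotation, and the probe set with the highest mean over the 11 arrays stood for it. All 10 genes were found, out of 19938 named genes on the array. The fibroblasts came from female mice of the FVB/n strain and were run on 11 arrays: 2 of normal glands at 8 weeks of age (D2 and D5), and from MMTV-PyMT mice 3 of hyperplasia at 4 weeks (D6, D7 and D12), 3 of carcinoma at 9 weeks (D3, D4 and D10) and 3 of advanced carcinoma at 12 weeks (D8, D9 and D11). In the MMTV-PyMT model the polyoma middle T oncogene is driven by a mammary tumour virus promoter in the mammary epithelium, and the fibroblasts themselves are not the cells that are transformed. Each array holds RNA of 1 cohort of pooled mice. The cells were sorted by flow cytometry as positive for CD140a, the PDGF receptor alpha of fibroblasts, and negative for the product of Adgre1, an antigen of macrophages. The sample labels also give them as negative for the epithelial antigen EpCAM. The methods name EpCAM for the validation sorts and not for the array sort. Each stage has its own age, so stage and age cannot be told apart. Carcinoma and advanced carcinoma fibroblasts together are called cancer-associated fibroblasts (CAFs).

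CC ligands bind G protein-coupled receptors on leukocytes. Ccl2 and Ccl7 act mainly through CCR2 and bring monocytes into inflamed tissue, Ccl11 attracts eosinophils through CCR3, Ccl3, Ccl6 and Ccl9 act through CCR1 on myeloid cells, and Ccl19 guides dendritic cells and naive T cells through CCR7. Fibroblasts make Ccl2, Ccl7 and Ccl11 when stimulated by inflammatory cytokines, while macrophages and lymphocytes are rich sources of several of the others. Most of these genes lie in a cluster on mouse chromosome 11. In the RefSeq gene order Ccl2, Ccl7, Ccl11, Ccl12, Ccl8 and Ccl1 follow each other there, Ccl5, Ccl9, Ccl6, Ccl3 and Ccl4 form another run on that chromosome, and Ccl19 lies on chromosome 4 beside Ccl21a.

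Values are log2 expression after robust multi-average normalisation, as the authors deposited them, and a difference of 1 on this scale is a factor of 2 in array signal. Array medians lay between 5.28 and 5.39. Normal D2 and advanced carcinoma D11 form a tied pair of arrays: over all 35399 probe sets their values average to the mean of the remaining 9 arrays (the sums differ by 0.000144 at most), and neither the labels nor the methods name a step that would do this. A high D2 therefore goes with a low D11 by construction, and both arrays are not independent replicates. Fits with a term for these arrays and fits without them were run beside the comparisons, and a call that they change is given. The term stands for a shift common to both arrays, so it cannot take up a high D2 with a low D11. For CAFs against the other arrays the tie leaves little such shift, so passing with the term is no check on the tie. The fibroblast markers were bright on all arrays. Their mean over 13 genes was 10.87 to 11.28 in normal and hyperplasia arrays and 10.70 to 11.02 in CAF arrays, apart from carcinoma D4 at 9.43. With 2 or 3 arrays in a stage, precision is limited.

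Of the 10 chemokine genes, 6 rose and 1 fell in CAFs against normal and hyperplasia fibroblasts. Ccl6 rose 4.82-fold, Ccl2 3.71-fold, Ccl9 3.64-fold, Ccl7 3.23-fold, Ccl3 2.90-fold and Ccl8 2.64-fold, and Ccl5, known as a product of T cells among others, was 3.16-fold lower. Ccl11, Ccl4 and Ccl19 did not pass the test. The test was limma on 6 CAF arrays against 5 others, with p-values adjusted by Benjamini-Hochberg over all 19938 genes. In this comparison 24.9% of all genes passed, 2402 upwards and 2559 downwards, against 7 of the 10 chemokines. The median difference of the 10 was 1.47 on the log2 scale and that of all genes was -0.04. The same 7 genes passed with the term for the tied arrays, where 20.3% of all genes did. The term hardly moved the differences (1.89 for Ccl2 with it and without it), so little else could come of that fit. Without both tied arrays Ccl2 (adjusted p = 0.0732 in limma) and Ccl7 (adjusted p = 0.0808) no longer passed.

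**Figure D1:**
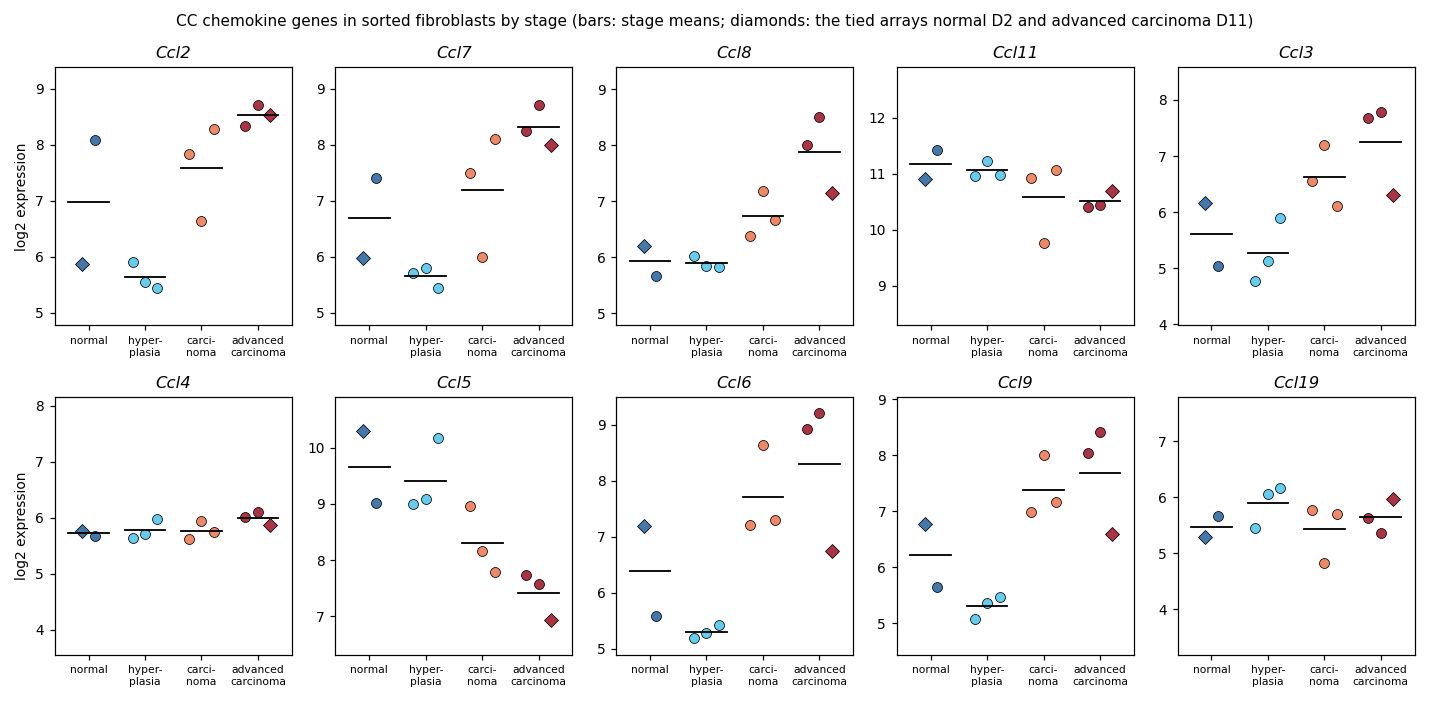
Log2 expression of the 10 CC chemokine genes in each of 11 arrays, by stage. Points are arrays, horizontal bars are stage means and diamonds are the tied arrays normal D2 and advanced carcinoma D11. Ccl2 and Ccl7 are high in normal D5 and low in hyperplasia. Ccl2, Ccl3, Ccl6, Ccl7, Ccl8 and Ccl9 are highest in advanced carcinoma D9, and Ccl5 is lowest in advanced carcinoma D11.

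Ccl2, the main ligand of CCR2 and a chemoattractant of monocytes, was at 5.87 and 8.08 in the normal arrays D2 and D5. It was at 5.90, 5.55 and 5.45 in hyperplasia D6, D7 and D12. In carcinoma D3, D4 and D10 it was at 7.84, 6.65 and 8.29, and in advanced carcinoma D8, D9 and D11 at 8.33, 8.71 and 8.53. The advanced carcinoma arrays lay above all other arrays, normal D5 lay between the upper carcinoma arrays, and carcinoma D4 was the lowest CAF array, so CAFs and the others overlapped through normal D5. The difference of CAFs was 1.89 (95% interval 0.79 to 2.99, SE 0.50, adjusted p = 0.0190 in limma). Without hyperplasia D7 the difference was 1.73 and its adjusted p in limma 0.051. The array is made from the RNA of all sorted cells, and in such bulk samples more cells of a type and more RNA per cell cannot be told apart.

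Ccl7, a further CCR2 ligand whose gene is the neighbour of Ccl2, was at 5.98 and 7.40 in normal D2 and D5 and at 5.71, 5.79 and 5.45 in hyperplasia D6, D7 and D12. It was at 7.49, 5.99 and 8.11 in carcinoma D3, D4 and D10 and at 8.24, 8.70 and 8.00 in advanced carcinoma D8, D9 and D11. As for Ccl2, normal D5 stood above the other normal and hyperplasia arrays, and carcinoma D4, at the level of normal D2, stood below the other CAF arrays. The difference of CAFs was 1.69 (95% interval 0.64 to 2.74, SE 0.48, adjusted p = 0.0252 in limma). This call is the least stable of the 7. It was lost without hyperplasia D6, D7 or D12 or advanced carcinoma D8 or D9, each left out alone, with adjusted p values between 0.0545 and 0.0598 in limma, and in a plain analysis of variance of the same 2 groups (adjusted p = 0.0504). At the threshold of the study, an unadjusted p under 0.05 with a fold over 1.5, Ccl7 passed in that analysis too.

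Ccl8, a monocyte chemoattractant that in the mouse also binds CCR8, was at 6.21 and 5.66 in normal D2 and D5 and at 6.01, 5.84 and 5.83 in hyperplasia D6, D7 and D12. It was at 6.37, 7.18 and 6.66 in carcinoma D3, D4 and D10 and at 8.00, 8.51 and 7.14 in advanced carcinoma D8, D9 and D11. All 6 CAF arrays lay above all 5 others, and carcinoma D4 was here the highest of the carcinoma arrays. The difference was 1.40 (95% interval 0.66 to 2.14, SE 0.34, adjusted p = 0.0128 in limma).

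Ccl11, the eotaxin gene, was at 10.90 and 11.43 in normal D2 and D5 and at 10.96, 11.23 and 10.98 in hyperplasia D6, D7 and D12. It was at 10.92, 9.76 and 11.06 in carcinoma D3, D4 and D10 and at 10.41, 10.44 and 10.70 in advanced carcinoma D8, D9 and D11. The advanced carcinoma arrays lay below all normal and hyperplasia arrays, carcinoma D4 was lowest of all, and the other carcinoma arrays lay among the normal and hyperplasia ones. The difference of CAFs was -0.55 (95% interval -1.01 to -0.10) and did not pass (adjusted p = 0.0728 in limma). It passed when each array was centred on its median (-0.64, adjusted p = 0.0409) and without carcinoma D10 (-0.65, adjusted p = 0.0323). Ccl11 stood lowest in the array in which the fibroblast marker mean was lowest. The part of that in the result was not tested.

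Ccl3, a CCR1 ligand made by activated macrophages, was at 6.17 and 5.04 in normal D2 and D5 and at 4.78, 5.13 and 5.89 in hyperplasia D6, D7 and D12. It was at 6.55, 7.19 and 6.11 in carcinoma D3, D4 and D10 and at 7.67, 7.78 and 6.31 in advanced carcinoma D8, D9 and D11. The groups overlapped only through normal D2, which lay just above carcinoma D10. The difference of CAFs was 1.53 (95% interval 0.74 to 2.33, SE 0.36, adjusted p = 0.0117 in limma).

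Ccl4, the close relative of Ccl3 next to it on the chromosome, was nearly flat. It was at 5.77 and 5.67 in normal D2 and D5, at 5.64, 5.71 and 5.97 in hyperplasia D6, D7 and D12, at 5.61, 5.93 and 5.74 in carcinoma D3, D4 and D10 and at 6.01, 6.10 and 5.87 in advanced carcinoma D8, D9 and D11. The 11 values spanned 5.61 to 6.10, and CAFs and the others overlapped. The difference was 0.13 (95% interval -0.08 to 0.33, adjusted p = 0.337 in limma).

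Ccl5, a chemoattractant of T cells and monocytes, was at 10.30 and 9.02 in normal D2 and D5 and at 8.995, 9.09 and 10.17 in hyperplasia D6, D7 and D12. It was at 8.97, 8.17 and 7.78 in carcinoma D3, D4 and D10 and at 7.73, 7.58 and 6.92 in advanced carcinoma D8, D9 and D11. All CAF arrays lay below all others, though carcinoma D3 was only just below hyperplasia D6, and normal D2 and hyperplasia D12 stood above the rest. The difference was -1.66 (95% interval -2.46 to -0.85, SE 0.37, adjusted p = 0.00867 in limma). Of the 10 genes, Ccl8 and Ccl5 had no overlap between CAFs and the others, and 14.9% of all genes had none, so this count is close to the background.

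Ccl6, a chemokine gene of rodents expressed by myeloid cells, was at 7.19 and 5.58 in normal D2 and D5 and at 5.18, 5.29 and 5.42 in hyperplasia D6, D7 and D12. It was at 7.21, 8.64 and 7.29 in carcinoma D3, D4 and D10 and at 8.92, 9.20 and 6.75 in advanced carcinoma D8, D9 and D11. Normal D2 was the high array of its group and advanced carcinoma D11 the low array of the CAFs, and through these tied arrays the groups overlapped. The difference was 2.27 (95% interval 1.13 to 3.41, SE 0.52, adjusted p = 0.00998 in limma). Without both tied arrays it was 2.88 (adjusted p = 0.00339), a 7.39-fold rise in place of 4.82-fold.

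Ccl9, the neighbour of Ccl6 and likewise a CCR1 ligand of myeloid cells, was at 6.78 and 5.65 in normal D2 and D5 and at 5.07, 5.36 and 5.48 in hyperplasia D6, D7 and D12. It was at 6.99, 8.00 and 7.17 in carcinoma D3, D4 and D10 and at 8.04, 8.41 and 6.59 in advanced carcinoma D8, D9 and D11. Its arrays stood in the same order as those of Ccl6, from advanced carcinoma D9 down to hyperplasia D6, again with overlap through normal D2 and advanced carcinoma D11. The difference was 1.86 (95% interval 1.03 to 2.70, SE 0.38, adjusted p = 0.00558 in limma), and Ccl9 had the smallest adjusted p of the 10 genes.

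Ccl19, the CCR7 ligand that stromal cells of lymph nodes make, was at 5.29 and 5.66 in normal D2 and D5, at 5.46, 6.06 and 6.16 in hyperplasia D6, D7 and D12, at 5.77, 4.82 and 5.71 in carcinoma D3, D4 and D10 and at 5.64, 5.36 and 5.96 in advanced carcinoma D8, D9 and D11. The groups overlapped, and carcinoma D4 was lowest. The difference was -0.18 (95% interval -0.66 to 0.29, adjusted p = 0.566 in limma). Ccl19 has 5 probe sets with that symbol alone, of which the upper pair held nearly the same values, and carcinoma D4 was lowest in all 5.

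Among pairs of stages, hyperplasia and advanced carcinoma differed in the most chemokine genes. Against hyperplasia the same 6 genes rose in advanced carcinoma and Ccl5 fell, 7 of 10 against 14.5% of all genes. Ccl6 rose by 2.99 (SE 0.68, adjusted p = 0.0206 in limma), Ccl2 by 2.89 (SE 0.55, adjusted p = 0.0111), Ccl7 by 2.66 (SE 0.52, adjusted p = 0.0123) and Ccl9 by 2.38 (SE 0.48, adjusted p = 0.0139). Ccl8 and Ccl3 each rose by 1.99, with adjusted p values of 0.00712 and 0.0277 in limma, and Ccl5 fell by 2.01 (SE 0.45, adjusted p = 0.0205). The 3 advanced carcinoma arrays did not overlap with the 3 hyperplasia arrays in 8 of the 10 genes, while 42.1% of all genes had no overlap. The number of calls depended on single arrays. It was 4 without hyperplasia D6 and also without D7, 2, Ccl2 and Ccl8, without advanced carcinoma D8 and 1, Ccl8, without advanced carcinoma D9. The call of Ccl5 was also lost without hyperplasia D12, without advanced carcinoma D11 and without both tied arrays, and that of Ccl11 was gained without carcinoma D4. Without both tied arrays the difference of Ccl6 was 3.76, a 13.6-fold rise in place of 7.95-fold. A plain analysis of variance called 4 of the 10, without Ccl3, Ccl5 and Ccl6, while array weights called 9 and a fit on the arrays of these 2 stages 8. The shares of all genes called in these fits are not given, so these counts have no background beside them.

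Against normal glands, advanced carcinoma fibroblasts had more Ccl8 and less Ccl5. Ccl8 rose by 1.95 (95% interval 1.12 to 2.78, adjusted p = 0.0224 in limma) and Ccl5 fell by 2.25 (95% interval -3.40 to -1.10, adjusted p = 0.0394), 2 of 10 genes against 5.61% of all genes. The CCR2 ligands Ccl2 and Ccl7 had differences of 1.55 (adjusted p = 0.175 in limma) and 1.62 (adjusted p = 0.142), with the normal arrays far apart. Ccl3 had a difference of 1.65 (adjusted p = 0.116 in limma). Ccl6 (1.91, adjusted p = 0.176) and Ccl9 (1.46, adjusted p = 0.151) overlapped between these stages. With the term for the tied arrays, where 2.34% of all genes passed, Ccl8 did (adjusted p = 0.0450 in limma) and Ccl5 did not (adjusted p = 0.0760). In a plain analysis of variance neither passed (adjusted p = 0.0743 for Ccl8 and 0.102 for Ccl5). With array weights 8 of the 10 passed, a count without the share of all genes beside it. Without advanced carcinoma D8 or D9 none of the 10 passed, whereas without carcinoma D4 there were 4, with Ccl7 and Ccl11 added. Without hyperplasia D6 or D7 the count was 1, Ccl8, and without advanced carcinoma D11 Ccl9 passed in place of Ccl5. Leaving out normal D2, normal D5 or both tied arrays leaves 1 normal array, which is then assumed to vary like the other stages, and none of the 10 passed in these fits. The sizes moved without both tied arrays, where normal D5 stands for the normal glands. The difference was 3.48 for Ccl6, 2.69 for Ccl3, 2.59 for Ccl8 (adjusted p = 0.0608 in limma) and 2.57 for Ccl9, all larger than with these arrays, and 0.44 for Ccl2 and -1.37 for Ccl5, both smaller in size.

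Carcinoma fibroblasts differed from hyperplasia in 1 of the 10 genes, against 9.25% of all genes. Ccl9 was higher by 2.08 (95% interval 0.99 to 3.17, adjusted p = 0.0318 in limma). Ccl6 (2.42, adjusted p = 0.0567) and Ccl2 (1.96, adjusted p = 0.0569) lay just over the threshold. Unadjusted p-values were under 0.05 for 7 of the 10 genes, where 28.0% of all genes had such a value. The Ccl9 call was lost with the term for the tied arrays (adjusted p = 0.0507 in limma, with 5.48% of all genes passing) and without hyperplasia D6, D7 or D12, carcinoma D3 or D4 or advanced carcinoma D8. Without carcinoma D4, Ccl2 and Ccl7 passed in its place. Without normal D2 or normal D5 the calls were Ccl9 and Ccl2, and without advanced carcinoma D11 they were Ccl9 and Ccl6.

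The remaining pairs of stages gave no call among the 10 genes in limma. Between carcinoma and normal glands, where 0.938% of all genes passed, Ccl5 was lower by 1.35 (unadjusted p = 0.0257, adjusted p = 0.215), and it was the only gene of the 10 with an unadjusted p under 0.05, against 18.0% of all genes. Between advanced carcinoma and carcinoma, where 0.0% of all genes passed, Ccl8 was higher by 1.15 (unadjusted p = 0.00680, adjusted p = 0.884), also the only gene of the 10 under 0.05 unadjusted, against 5.64% of all genes. Between hyperplasia and normal glands 0.0% of all genes passed too, and none of the 10 had an unadjusted p under 0.05, against 4.22% of all genes. Contrasts of the analysis of variance gave 0 calls in these 3 pairs as well. The differences of Ccl2 and Ccl7 between hyperplasia and normal glands were -1.34 and -1.04. In both genes normal D2 was near the hyperplasia arrays and normal D5 far above them. Ordered by mean level, each of the 6 genes that rose in CAFs ran from hyperplasia through normal glands and carcinoma to advanced carcinoma, while Ccl5 and Ccl11 ran down from normal glands through hyperplasia and carcinoma to advanced carcinoma. Stages next to each other in the order of a gene did not differ past the threshold in any of the 10 genes, apart from Ccl8 and Ccl4 when arrays were weighted. These comparisons share arrays, so their values are not independent of each other.

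**Figure D2:**
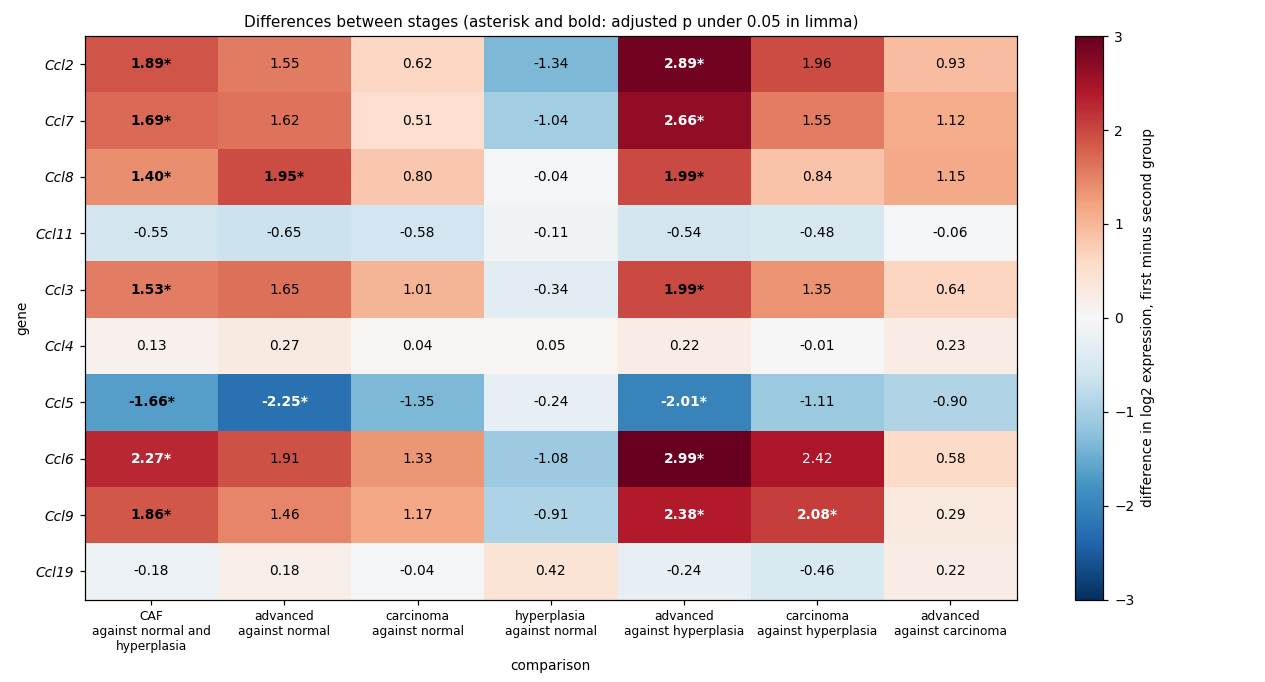
Differences in log2 expression of the 10 genes in 7 comparisons, first group minus second, with red for higher and blue for lower in the first group. Bold values with an asterisk have an adjusted p under 0.05 in limma, and 7 genes have one both for CAFs against the rest and for advanced carcinoma against hyperplasia.

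The 6 genes that rose did not follow 1 pattern over the arrays. All 6 were high in advanced carcinoma D8 and highest in D9, and they parted in other arrays. Ccl3, Ccl6, Ccl8 and Ccl9 were also high in carcinoma D4. Ccl2 and Ccl7 were low in carcinoma D4 and high in normal D5. Over the 11 arrays Pearson's r was 0.97 between Ccl2 and Ccl7 and 0.99 between Ccl6 and Ccl9, against 0.57 between Ccl2 and Ccl6. These values describe arrays that share stages and include the tied pair, and no test goes with them. Some classes of genes, such as predicted genes and small RNAs, were left aside in ranking by this measure. Among the genes ranked, those most like Ccl2 were Fam83f, Ccl7 and Ngef, and those most like Ccl7 were Gpr176, Ccl2 and Ngef, with r of 0.97 or 0.98. For Ccl3 they were the lysosomal protease gene Ctss (0.99), Mpeg1, the gene of a pore-forming protein of macrophages (0.99), and the complement gene C1qb (0.99). For Ccl6 they were Ccl9 (0.99), the mannose receptor Mrc1 (0.99) and the Fc receptor Fcgr3 (0.99), and for Ccl9 they were Ccl6 (0.99), lysozyme Lyz2 (0.99) and Lilrb4a (0.98). For Ccl8 they were Nxpe5 (0.98), Rfc3 (0.97) and the oxysterol enzyme gene Ch25h (0.97).

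Macrophage markers moved with Ccl3, Ccl6, Ccl8 and Ccl9. All 12 markers on the list rose in CAFs, Cd14 by 2.44 and Adgre1, which encodes the antigen that the cells were sorted against, by 2.32, and 11 did with the term for the tied arrays. Of all genes 24.9% passed in this comparison, and 20.3% with the term. The mean of the 12 was 6.17 and 5.01 in normal D2 and D5, 4.69, 4.98 and 5.42 in hyperplasia D6, D7 and D12, 6.49, 7.84 and 6.27 in carcinoma D3, D4 and D10, and 8.14, 8.28 and 6.53 in advanced carcinoma D8, D9 and D11. It was 6.27 to 8.28 in CAF arrays and 4.69 to 6.17 in the others. The array with the high macrophage mean among carcinomas, D4, was also highest among them in Ccl3, Ccl6, Ccl8 and Ccl9 and lowest in Ccl2 and Ccl7. Carcinoma D4 also had the lowest fibroblast marker mean (9.43). From the mean of its stage it deviated by -1.04 in these markers, -0.95 in Ccl2 and -1.21 in Ccl7. The part of this in the low Ccl2 and Ccl7 of D4 was not tested. In normal D5 the macrophage mean was low while Ccl2 and Ccl7 were high. None of the markers is at 0 on this scale, and Adgre1 was at 4.14 ± 0.56 (SD, n = 5) in normal and hyperplasia arrays, below the array medians. The part of macrophage RNA in these differences was not tested. Luminal epithelial markers moved as well, with 9 of 10 higher in CAFs, Epcam by 2.16 among them. Their mean was 8.59 to 9.70 in CAF arrays against 6.31 to 7.94 in the others. It was highest in carcinoma D4 (9.70) and advanced carcinoma D8 (9.50) and D9 (9.45), the arrays where the macrophage mean was also highest. Among normal and hyperplasia arrays both means were highest in normal D2. Moving with Ccl3, Ccl6, Ccl8 and Ccl9 was thus not particular to macrophage markers. Their part was not tested either.

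**Figure D3:**
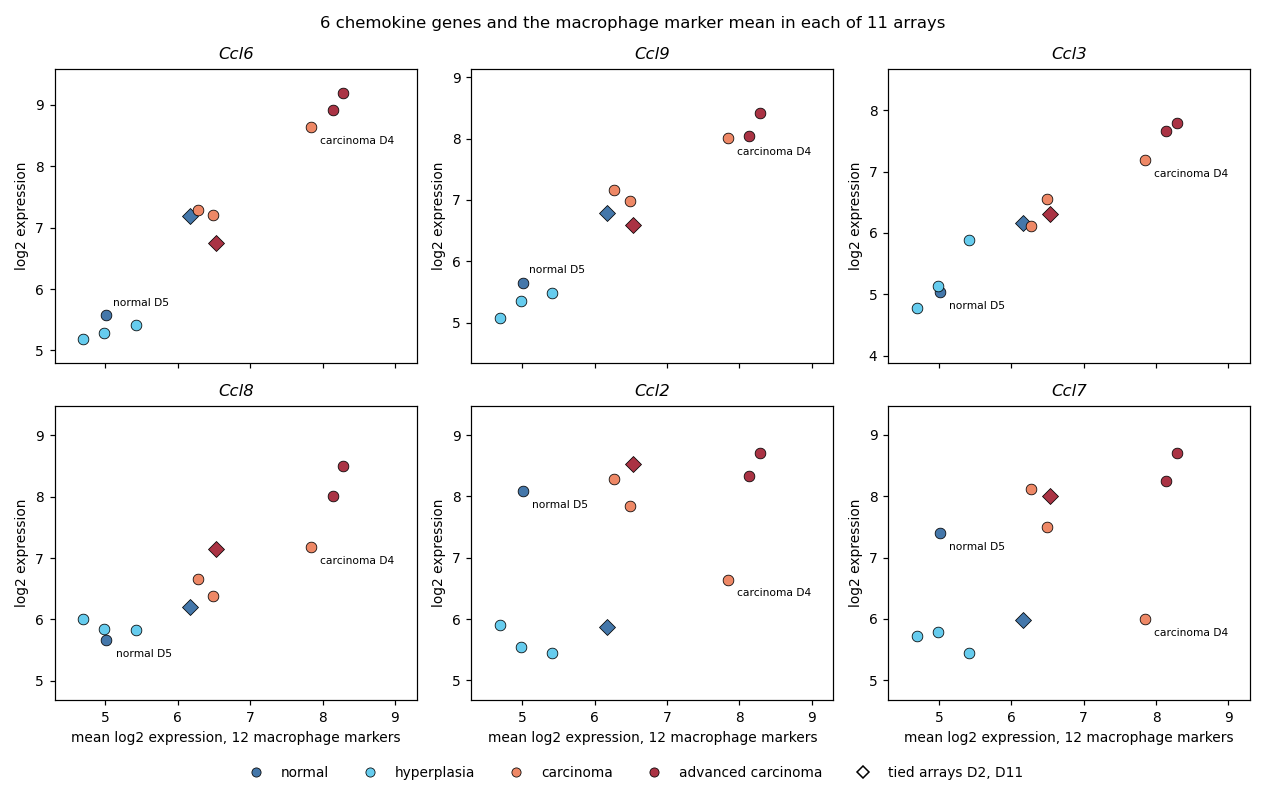
Log2 expression of the 6 genes that rose in CAFs against the mean log2 expression of 12 macrophage markers, with 1 point for each of 11 arrays and diamonds for the tied arrays. Ccl6, Ccl9, Ccl3 and Ccl8 climb with the marker mean, whereas Ccl2 and Ccl7 are high in normal D5 (marker mean 5.01) and low in carcinoma D4 (marker mean 7.84). Carcinoma D4 also has the lowest fibroblast marker mean (9.43) and the highest luminal epithelial marker mean (9.70).

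For Ccl5, lymphocyte markers stood high in the same arrays. The mean of the 9 measured T and NK cell markers, of 10 listed, was highest in hyperplasia D12 (8.36) and normal D2 (7.62), the arrays with the most Ccl5, and it was 5.47 to 7.04 in CAF arrays. In this list 3 markers fell in CAFs, among them Cd8a by 1.37, and 1 rose, the cytotoxic granule gene Gzmb (0.98), named after its value was seen. With the term for the tied arrays 1 fell and 1 rose. In the fit without the term 24.9% of all genes passed. Of 5 measured B cell markers, of 6 listed, 3 fell, Cd79b by 1.31 among them, and 1 did with the term. Their mean was 5.60 to 7.10 in CAF arrays and 6.57 to 8.34 in the others, and it was likewise highest in hyperplasia D12. Among the genes ranked, those most like Ccl5 over the arrays were Ccl22, H2-M2 and S1pr1, each with r of 0.98. The order of the arrays was not the same throughout. Carcinoma D4 had more T and NK cell marker signal (7.04) than normal D5 (5.99) and less Ccl5. The B cell marker mean was 7.10 in both of these arrays. The part of lymphocyte RNA in the fall of Ccl5 was not tested.

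The promoters of the neighbouring genes Ccl6 and Ccl9, whose values were most alike, and of Ccl3 and Ccl8, which moved with them, are shown for their sequence. RefSeq windows of 250 bases before the start site (GRCm38.p6) matched 5 of the 10 genes, these 4 and Ccl19. They lie upstream of the genes at chr11:83593088-83593337, chr11:83578637-83578886 and chr11:83649379-83649628 on the minus strand and chr11:82114935-82115184 on the plus strand, and are printed 5′ to 3′ on the strand of the gene. Capitals mark matches to the motifs named below.
Ccl6: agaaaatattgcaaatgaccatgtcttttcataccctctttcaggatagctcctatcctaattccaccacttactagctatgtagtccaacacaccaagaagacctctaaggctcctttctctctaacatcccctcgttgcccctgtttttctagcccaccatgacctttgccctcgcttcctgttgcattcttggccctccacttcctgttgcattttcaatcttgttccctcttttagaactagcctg
Ccl9: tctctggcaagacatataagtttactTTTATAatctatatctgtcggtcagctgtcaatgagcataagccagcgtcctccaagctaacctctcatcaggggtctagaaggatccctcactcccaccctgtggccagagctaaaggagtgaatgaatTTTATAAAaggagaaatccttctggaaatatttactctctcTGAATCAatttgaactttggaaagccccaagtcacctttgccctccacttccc
Ccl3: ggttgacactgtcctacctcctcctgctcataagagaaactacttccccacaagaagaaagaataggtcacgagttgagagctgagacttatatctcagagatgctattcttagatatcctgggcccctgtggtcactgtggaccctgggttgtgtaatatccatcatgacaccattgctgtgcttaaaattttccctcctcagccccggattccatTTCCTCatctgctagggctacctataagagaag
Ccl8: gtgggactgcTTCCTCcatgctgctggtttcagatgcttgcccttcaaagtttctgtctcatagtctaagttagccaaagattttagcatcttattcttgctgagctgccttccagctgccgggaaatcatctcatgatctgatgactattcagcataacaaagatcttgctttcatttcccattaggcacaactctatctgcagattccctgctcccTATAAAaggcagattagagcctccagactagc

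Motifs were searched as letters on both strands. GAGGAA, the core bound by the myeloid factor PU.1, stood 28 to 33 bases before the start of Ccl3 and 235 to 240 bases before that of Ccl8, in both as TTCCTC, and 23.2% of 32851 promoter windows of that length hold it. TATAAA, which reads TTTATA on the other strand, stood 27 to 32 bases before the start of Ccl8 and at 3 places in the Ccl9 window, of which a pair overlap, and 12.4% of all windows hold it. TGANTCA, the AP-1 motif, stood 47 to 53 bases before the start of Ccl9 and is in 6.75% of windows. GGGANNTTCC, a motif for NF-kB, is in 1.21% of windows and TTGCNNAA, a motif for C/EBP, in 9.56%, and neither matched any of the 5 windows. These are matches of letters in the window and not measured binding.

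The Ccl6 window holds the run cttcctgttgcatt of 14 bases at 2 places, starting 73 and 47 bases before the start site, and no other of the 32851 windows holds it. Ccl6 and Ccl9 share the runs acctttgccctc (12 bases, from 86 bases before the start of Ccl6 and 20 before that of Ccl9) and gccctccacttcc (13 bases, from 55 and 14 bases before the start), and 3 of all windows hold each. Such runs of at least 12 bases were looked for after the alike values of the genes were seen.

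Of 11 other CC ligands listed, 9 were measured, 2 rose and 1 fell in CAFs, with a median difference of 0.02 against -0.04 for all genes. This count is near the background of 24.9% of all genes, and with the term for the tied arrays 1 rose and 1 fell. Ccl17 rose by 0.84 (SE 0.17, adjusted p = 0.00584 in limma) and Ccl22 fell by 0.84 (SE 0.18, adjusted p = 0.00804), although both are ligands of CCR4 and known products of dendritic cells and macrophages. Ccl25, a thymic and gut chemokine, rose by 0.15 (adjusted p = 0.0465) and did not pass with the term for the tied arrays (adjusted p = 0.0726). Its values of 4.89 to 5.25 lay below every array median. Ccl12 and Ccl1, which lie among the Ccl2 cluster, had differences of -0.08 (adjusted p = 0.469) and -0.10 (adjusted p = 0.122). They were chosen for their place on the chromosome after their values were seen.

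Of the CC receptors, 10 of 11 listed were measured, and 2 rose and 3 fell, with a median difference of -0.15. In the same comparison 24.9% of all genes passed in either direction. Ccrl2, a receptor-like protein that binds the chemoattractant chemerin, rose by 0.86 (SE 0.18, adjusted p = 0.00737 in limma). Ccr7, the receptor of Ccl19 on T cells and dendritic cells, fell by 1.53 (SE 0.43, adjusted p = 0.0256). Ccr4, a receptor of T cells, fell by 0.49 (adjusted p = 0.0226), and its values of 3.88 to 5.06 lay below every array median. The other calls, named after their values were seen, were Ccr1, the receptor of Ccl3, Ccl6 and Ccl9, which rose by 0.68 (adjusted p = 0.0363), and Ccr6, which fell by 0.49 (adjusted p = 0.0380). With the term for the tied arrays 1 rose and 2 fell, and Ccr1 (adjusted p = 0.0529) and Ccr6 (adjusted p = 0.0554) were not among them. Ccr2, the receptor of Ccl2 and Ccl7, was at 6.11 ± 0.74 (SD, n = 6) in CAFs and 5.33 ± 0.60 (SD, n = 5) in the others and did not pass (adjusted p = 0.148). It too was named after its value was seen.

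All 3 atypical receptors, which take up CC chemokines without the usual signalling, fell in CAFs, with a median difference of -0.85. In this comparison 24.9% of all genes passed, 2559 of 19938 downwards. All 3 receptors passed with the term too, where 20.3% of all genes did. Ackr2, a scavenger of inflammatory CC chemokines, went from 8.33 ± 0.60 (SD, n = 5) to 6.81 ± 0.81 (SD, n = 6), a fall of 1.52 (adjusted p = 0.0180 in limma). Ackr1, the Duffy antigen receptor of venules, fell by 0.85 (adjusted p = 0.00249 in limma). It had no overlap between the groups, as was so for 14.9% of all genes. Ackr4, which takes up the CCR7 ligands, fell by 0.57 (adjusted p = 0.00701 in limma).

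**Figure D4:**
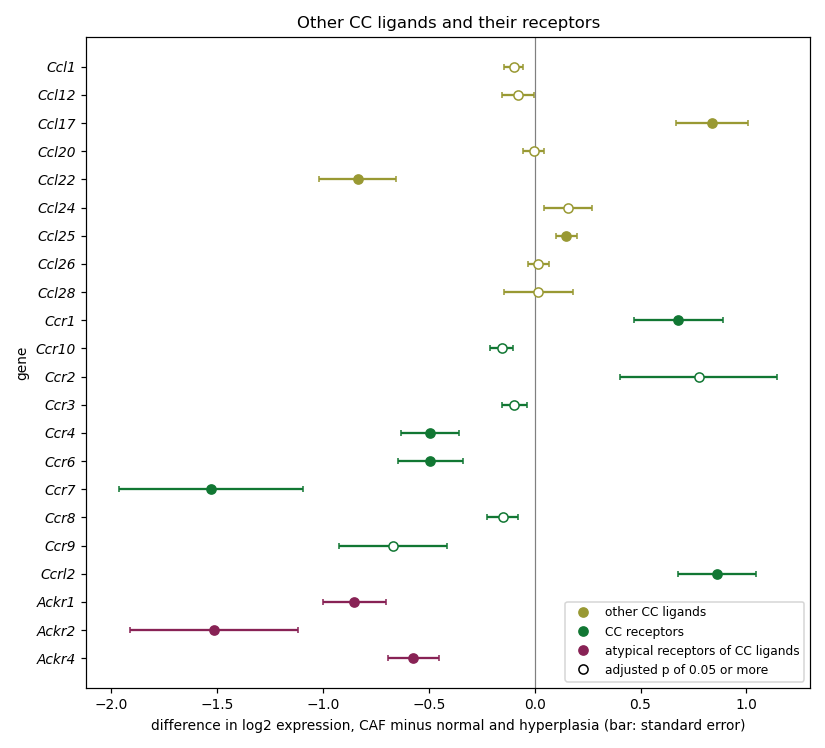
Differences in log2 expression between CAFs and normal and hyperplasia fibroblasts for 9 other CC ligands, 10 CC receptors and 3 atypical receptors. Points are limma estimates, bars are their standard errors and filled points have an adjusted p under 0.05. The 3 atypical receptors all lie on the lower side, while ligands and receptors lie on both sides.

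Cytokines that induce CC chemokines and the receptors of these cytokines moved in both directions. Of 13 measured genes, of 14 listed, 2 rose and 4 fell, with a median of -0.04, beside 24.9% of all genes that passed in either direction. The genes with the smallest p were Tnfrsf1b, Il4ra and Ifng. Tnfrsf1b, a receptor of TNF, fell by 0.51 (adjusted p = 0.00506 in limma). Il4ra, the receptor chain of interleukin-4 and interleukin-13 through which fibroblasts are induced to make Ccl11, fell by 1.06 (adjusted p = 0.00583). Ifng fell by 0.29 (adjusted p = 0.0215), and its values of 4.46 to 5.19 lay below every array median. The 2 that rose were Il1b (1.74, adjusted p = 0.0278) and Il1a (1.22, adjusted p = 0.0282), named after their values were seen. Il1b was highest in advanced carcinoma D9 (7.96) and D8 (7.67) and carcinoma D4 (6.65). Il1a was highest in the same arrays (5.97, 5.93 and 5.26), and so was the macrophage marker mean, in the same order. The part of macrophage RNA in the rise of both genes was not tested. Of 9 measured NF-kB factors and inhibitors, of 10 listed, only Nfkbiz, an atypical inhibitor that NF-kB signalling induces, passed, with a rise of 0.73 (adjusted p = 0.0465) that was lost with the term (adjusted p = 0.0655). The median of that list was 0.03.

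The lists of other cells that a sort could hold are given beside the 24.9% of all genes that passed. Of 9 dendritic cell markers 1 rose and 2 fell, with a mean of 5.42 to 5.83 in CAF arrays and 5.53 to 5.99 in the others, and of 8 neutrophil markers 1 rose and 1 fell. With the term for the tied arrays no dendritic cell marker rose and no neutrophil marker fell, and the other calls of both lists held. Of 7 lymph node reticular cell genes, listed beside Ccl19, 1 rose and 1 fell. Bst1 rose by 0.49 (adjusted p = 0.0250 in limma), and its values of 4.18 to 5.13 lay below every array median. The B cell chemokine Cxcl13 fell by 0.93 (adjusted p = 0.0357). It was named after its value was seen and did not pass with the term (adjusted p = 0.0519). Of 7 endothelial markers 1 fell, and of 13 fibroblast markers 2 fell and none rose, with a median of -0.57. Pdgfra, the antigen of the sort, differed by -0.66 and did not pass (adjusted p = 0.110).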

How the data were processed

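The authors normalised and summarised Affymetrix Mouse Gene 1.0 ST arrays with the robust multi-average method (RMA) in Partek Genomics Suite 6.5, as the submitters' processing notes give it, and deposited log2 expression values of 35399 probe sets for 11 arrays. Scanner files were not used here, so the normalisation could not be checked against them. A probe set was named where the array annotation pairs it with 1 symbol (21789), and those with several (1621) or none (11989) were left out. For 999 genes that had several probe sets, the one with the highest mean was taken, and 19938 genes entered the tests.

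The comparisons used limma (version 3.58.1, R 4.3.3), for pairs of stages 1 fit with 4 stages over 11 arrays (7 residual degrees of freedom), and for CAFs against the rest a fit with 2 groups (9). Benjamini-Hochberg adjustment ran over all genes in each comparison, with a threshold of 0.05. The alternatives, whose effect is given at the end, were centring of arrays, quantile normalisation, leaving out dim genes (mean below the median gene, 5.64), no choice among probe sets, contrasts of a one-way ANOVA (the methods' test, here with adjusted p-values), robust trended variances, array weights, the tied arrays as a term or left out, 2 stages only, each array left out and the study's threshold (unadjusted p under 0.05, fold over 1.5). The pipeline was tested on simulated data.

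All 10 members were named. From each pathway list at most the 3 genes with the smallest p for CAFs against the rest were named, from each cell type list the marker with the smallest p and the sort's antigens, and for each member that passed the 3 genes with the highest Pearson's r. Exceptions are marked. The ranking by r left aside predicted and clone-named genes, small RNAs, olfactory, vomeronasal and antigen receptor genes, and symbols beginning with Rn. The members, lists and tests were chosen with earlier results of these data known. In the study each point of the principal component analysis of the arrays is a cohort of mice. The array titles give only a number, a stage and, for the lesions, an age.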

Additional observations from a re-analysis of the deposited data

Results flagged for a closer look

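In 3 of 20 groups of chemokine values (10 genes, each in CAF arrays and in normal and hyperplasia arrays), 1 array lay far from the others by Dixon's ratio. This is the gap to the nearest array divided by the range of the group. The cut-off is passed by about 1 in 20 independent groups drawn from 1 normal distribution. The groups here pool stages and share arrays, and Ccl2 and Ccl7 went together (Pearson's r = 0.97), so the 3 cannot be set against that rate. Among normal and hyperplasia arrays, normal D5 stood above the rest in Ccl2 (ratio 0.826) and Ccl7 (ratio 0.728), and normal D2 stood above the rest in Ccl6 (ratio 0.804). Normal D2 is one of the tied arrays. No CAF array was far enough from the others in any of the 10 genes.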

How the results depend on the processing

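The differences of the 10 genes between CAFs and the rest kept their sign and their side of the threshold in 187 of 199 alternative fits. The calls of Ccl3, Ccl5, Ccl6, Ccl8 and Ccl9 held in all of theirs. Those of Ccl2 and Ccl7 were lost in 9 in all and Ccl11 was gained in 2. Ccl19 changed sign with array weights, to 0.0534 (adjusted p = 0.866 in limma).

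With 1 array left out, the number of chemokines called ranged from 5 to 8 for CAFs against the rest, 0 to 4 for advanced carcinoma against normal, 1 to 8 for advanced carcinoma against hyperplasia and 0 to 2 for carcinoma against hyperplasia, and stayed at 0 to 0 for the other pairs of stages. For advanced carcinoma against normal (2) it was 0 with ANOVA, 8 with array weights, 1 with the term for the tied arrays, 0 without both of these and 7 at the study's threshold. For carcinoma against hyperplasia (1) it was 2 after centring, 3 without dim genes, 0 with ANOVA, 3 with array weights, 0 with the term, 3 without the tied arrays, 0 with the arrays of the 2 stages only and 7 at the study's threshold. For advanced carcinoma against hyperplasia (7) it was 4 with ANOVA, 9 with array weights, 8 with the 2 stages only and 6 without both tied arrays. At the study's threshold it was 1 for carcinoma against normal and 1 for advanced carcinoma against carcinoma, where array weights gave 2 (Ccl8 and Ccl4). The counts at the study's threshold used unadjusted p-values of limma. With those of the ANOVA, Ccl3, Ccl5, Ccl7, Ccl8 and Ccl9 reached it for advanced carcinoma against normal. Ccl2 (unadjusted p = 0.0614 in ANOVA) and Ccl6 (unadjusted p = 0.0620 in ANOVA), which reached it in limma, did not. Without normal D2, normal D5 or both tied arrays 1 normal array is left. The cause of these shifts was not tested. The share of all genes called is not given for these alternatives, apart from the term for the tied arrays. These counts therefore show how the calls moved, and not whether the chemokines stood out from all genes. Ccl19 lies below the median level, so removal of dim genes gave no value for it. No paired analysis was possible because each array has a number of its own. A low signal cannot be told from background with these values.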
